A study of Mus musculus with 8 samples.

Results

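The unfolded protein response and the integrated stress response were followed through 8 genes, Ppp1r15a, Atf4, Ddit3, Xbp1, Hspa5, Dnajb9, Sdf2l1 and Herpud1, in T cells from the pancreas of diabetic mice. The 8 genes were chosen by symbol from among the 32285 gene features of the count matrices, with their levels by library and harvest day in these same T cells already known. Their differences between libraries, days, treatments and T cell gates are therefore given as a description, without a p-value; the fits across all genes give their fold changes and standard errors. Tests are given for genes outside the 8, and for the 8 where cells of 1 library and gate are split into classes. All 8 symbols were found, and all 8 passed the low-count filter of every comparison that was tested. Ddit3 is listed under 2 gene identifiers, of which ENSMUSG00000025408 held 7115 UMIs in the gated cells and ENSMUSG00000116429 held 0, so the first was used.

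Single-cell RNA sequencing (10x Genomics, 3′ end, with unique molecular identifiers, UMIs) had been carried out on 8 libraries of CD45+ CD3+ TCR-beta+ cells sorted out of the pancreas in NOD mice, which become diabetic through T cells that attack the insulin-producing beta cells. One library, called onset, came from mice at a blood glucose of 250 mg/dl, and one, called active, from mice above 600 mg/dl. The other 6 libraries came from mice with new-onset diabetes at 200 to 300 mg/dl that received vehicle (30% ethanol, 5% Tween 20 and 65% PEG300) or PPCA, 1 library of each on harvest days 2, 3 and 4. The design text speaks instead of sampling after 1, 2 and 3 days of therapy; the days of the sample labels are used, and no source states how the day numbers relate. PPCA pairs nutlin-3, an inhibitor of MDM2, at 50 mg/kg with MK-1775, an inhibitor of the cell-cycle kinase Wee1, at 25 mg/kg. All mice are labelled as female NOD mice of 3 to 5 months (3 to 4 months in another label). How many mice entered a library is not given, and nothing says that libraries came from separate sets of mice, so p-values measure only the spread between these libraries.

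The matrices held 80470 cell barcodes and 419420275 UMIs. After filtering, 27313 cells formed the CD4 gate (a Cd4 UMI and none of Cd8a or Cd8b1) and 22094 the CD8 gate (the reverse), with 1629 to 4712 cells and 10121304 to 24659293 UMIs per library and gate. Median UMIs per gated cell ran from 3845.5 to 7238, and PPCA on day 4 had the lowest medians in both gates. The 28 library pairs shared 7 to 32 barcodes each. Although every mouse is labelled female, the libraries of vehicle on day 2, vehicle on day 3, PPCA on day 3 and PPCA on day 4 carried 186 to 273 CPM (UMIs per 1000000 UMIs) of Y-linked transcripts and at most 0.764 CPM of Xist, while the other 4 carried 418 to 617 CPM of Xist, which goes against the label for 4 libraries. Myeloid markers summed to 1.51 to 5.94 CPM in the gated cells, B and plasma cell markers to 107 to 228 CPM, mostly Ighm, and pancreas genes to 9.34 to 332 CPM, with Gcg at 0 in all 8 libraries.

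The endoplasmic reticulum (ER) folds secreted and membrane proteins, and when unfolded protein accumulates there the sensors IRE1, PERK and ATF6 raise the supply of chaperones and of degradation machinery. PERK is also one of several kinases that phosphorylate the translation factor eIF2, which slows protein synthesis while favouring translation of the transcription factor ATF4; that shared arm is the integrated stress response. T cells engage these programmes when activation raises protein synthesis, and much of the control acts on splicing, translation or cleavage of the factors, which 3′ mRNA counts do not show.

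Because several of these genes are textbook targets of the same stress factors, the 250 bases before the annotated start site are shown for 4 of them (RefSeq, build GRCm38.p6). They are Ppp1r15a at chr7:45526269-45526518 on the minus strand, Dnajb9 at chr12:44210069-44210318 on the minus strand, Hspa5 at chr2:34771840-34772089 on the plus strand and Herpud1 at chr8:94386179-94386428 on the plus strand. All 8 genes matched an entry; Ppp1r15a, Dnajb9 and Hspa5 are shown as the genes whose day 4 levels stood farthest above the rest, and Herpud1 as the ER gene with the most kinds of match. Capitals mark matches to the motifs named after the sequences.
Ppp1r15a: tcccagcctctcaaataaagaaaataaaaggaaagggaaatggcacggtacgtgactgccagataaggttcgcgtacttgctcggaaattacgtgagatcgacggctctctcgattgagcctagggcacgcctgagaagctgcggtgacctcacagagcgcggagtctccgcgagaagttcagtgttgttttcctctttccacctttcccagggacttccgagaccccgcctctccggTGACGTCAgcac
Dnajb9: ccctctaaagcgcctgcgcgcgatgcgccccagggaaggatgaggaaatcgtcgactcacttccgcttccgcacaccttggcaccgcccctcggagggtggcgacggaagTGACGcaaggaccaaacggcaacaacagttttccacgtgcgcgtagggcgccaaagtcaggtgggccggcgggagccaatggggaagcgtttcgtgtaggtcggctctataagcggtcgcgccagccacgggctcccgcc
Hspa5: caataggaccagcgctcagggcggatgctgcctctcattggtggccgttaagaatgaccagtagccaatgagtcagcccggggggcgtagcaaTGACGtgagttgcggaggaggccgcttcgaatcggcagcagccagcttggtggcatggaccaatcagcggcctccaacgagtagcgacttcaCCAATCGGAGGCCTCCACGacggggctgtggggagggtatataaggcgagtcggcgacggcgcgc
Herpud1: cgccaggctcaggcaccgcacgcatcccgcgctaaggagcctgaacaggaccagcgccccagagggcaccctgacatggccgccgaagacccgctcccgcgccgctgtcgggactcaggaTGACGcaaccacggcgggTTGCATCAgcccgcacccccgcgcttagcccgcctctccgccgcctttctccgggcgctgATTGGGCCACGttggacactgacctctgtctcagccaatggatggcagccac

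Both strands of the 300-base window, the 250 bases shown plus the 50 after the start site, were searched, and a position is that of the first base of the match. The ER stress element (ERSE), which is CCAAT, any 9 bases and CCACG, was found in Hspa5 at position -65, and 0.119% of all 32851 promoter windows hold it. ERSE-II, which is ATTGG, any base and CCACG, was found in Herpud1 at -52, and 0.0365% of windows hold it. The cyclic AMP response element TGACGTCA was found in Ppp1r15a at -12, as in 1.79% of windows, and its half-site TGACG, which it overlaps, in Ppp1r15a, Atf4, Dnajb9, Hspa5 and Herpud1, as in 20.8% of windows. The amino acid response motif TGATGNAA was found in Herpud1 at -112, as in 3.97% of windows. None of these motifs was found in the windows of Ddit3, Xbp1 or Sdf2l1.

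Levels are given first for the eIF2 arm. Ppp1r15a encodes GADD34, the subunit that brings protein phosphatase 1 to eIF2 and so ends the translational block. In CD4-gated cells its level was 102 CPM in active, 187 in onset, 152 in vehicle and 48.6 in PPCA on day 2, 153 and 148 on day 3, and 639.9 and 933 on day 4, in the same order of vehicle and PPCA. In CD8-gated cells the same libraries gave 51.5, 116, 82.7, 30.4, 92.6, 81.0, 424 and 653 CPM. Both day 4 libraries lay above the other 6 in both gates, PPCA on day 2 was the lowest and the highest library exceeded the lowest 19.2-fold and 21.5-fold. The order of the 8 libraries was the same in both gates, and only 2 neighbouring pairs in CD4 cells and 1 in CD8 cells had overlapping 95% counting (Poisson) intervals, which cover counting error only.

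Atf4 encodes the transcription factor whose translation the eIF2 arm favours. It was measured at 99.5 CPM in active, 102 in onset, 95.4 and 82.5 in vehicle and PPCA on day 2, 96.2 and 105 on day 3, and 151 and 197 on day 4 in CD4-gated cells. In CD8-gated cells it was 85.8 in active, 91.2 in onset, and 129 and 175 CPM in vehicle and PPCA on day 4, against 72.9 to 84.8 CPM on days 2 and 3. The 2 day 4 libraries again stood above the other 6 in both gates, and 4 of the 7 neighbouring pairs in each gate overlapped within counting error.

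Ddit3 encodes CHOP, a transcription factor induced through ATF4 and tied to cell death under prolonged stress. Its CD4 levels were 23.6 CPM in active, 22.6 in onset, 31.6 and 32.2 on day 2, 29.7 and 33.0 on day 3, and 18.5 and 24.3 on day 4 for vehicle and PPCA. Its CD8 levels ran from 21.4 CPM in vehicle on day 4 to 35.5 CPM in PPCA on day 2. Ddit3 therefore did not share the high day 4 level of Ppp1r15a and Atf4. By CPM vehicle on day 4 was its lowest library in both gates, and PPCA on day 4, at 24.3 and 25.7 CPM, lay above onset. After TMM scaling between libraries, onset, at 23.1 CPM, was below vehicle on day 4, at 23.6 CPM, in CD8-gated cells. In CD8-gated cells all 7 neighbouring pairs overlapped.

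Xbp1 encodes the transcription factor made active by IRE1-dependent splicing of its mRNA; the counts do not separate spliced from unspliced Xbp1. Its CD4 levels were 30.7 CPM in active, 36.4 in onset, 30.5 and 44.97 on day 2, 24.0 and 33.5 on day 3, and 39.8 and 40.25 on day 4 for vehicle and PPCA. Its CD8 levels were 24.0, 32.4, 23.8, 36.2, 16.5, 20.9, 26.0 and 22.4 CPM in the same order of libraries. PPCA on day 2 was the highest and vehicle on day 3 the lowest in both gates, and the day 4 libraries fell inside the range of the others. Within counting error PPCA on day 2 overlapped the next library, which was PPCA on day 4 in CD4-gated and onset in CD8-gated cells.

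Hspa5 encodes BiP, the main Hsp70 chaperone of the ER, and Dnajb9 encodes ERdj4, an ER co-chaperone of BiP. Hspa5 in CD4-gated cells was measured at 265 CPM in active, 382 in onset, 296 and 298 in vehicle and PPCA on day 2, 259 and 286 on day 3, and 663 and 718 on day 4. In CD8-gated cells Hspa5 ran from 240.3 CPM in active to 365 in onset among the other 6 libraries, with 555 and 609.8 CPM on day 4. Onset was thus the highest of those 6 libraries for Hspa5 in both gates, well under either day 4 library.

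Dnajb9 in CD4-gated cells was measured at 21.8 CPM in active, 34.9 in onset, 24.5 and 19.1 on day 2, 24.7 and 22.9 on day 3, and 164 and 177 on day 4 for vehicle and PPCA. In CD8-gated cells the 6 other libraries lay between 20.2 and 42.5 CPM, onset being the highest, and day 4 gave 124 CPM in vehicle and 161 in PPCA. The 4 neighbouring pairs below onset overlapped in each gate, so among those 6 libraries only onset stood apart from the next one by more than counting error.

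Sdf2l1 encodes an ER-resident partner of the chaperone ERdj3, and Herpud1 encodes HERP, a membrane component of ER-associated degradation. Sdf2l1 was measured at 17.9, 20.0, 22.0, 22.3, 17.3 and 18.7 CPM in CD4-gated cells of active, onset, vehicle and PPCA on day 2, and vehicle and PPCA on day 3, and at 14.7 and 13.3 CPM on day 4. In CD8-gated cells it was 22.7 to 34.5 CPM in the other 6 libraries and 19.3 and 16.9 CPM on day 4. Sdf2l1 was the one gene of the 8 with both day 4 libraries below the other 6 in both gates. However, in CD4-gated cells all 7 neighbouring pairs overlapped within counting error, and in CD8-gated cells vehicle on day 4 overlapped PPCA on day 3. Herpud1 was at 34.5, 33.2, 41.9, 40.0, 30.1, 41.6, 45.4 and 53.9 CPM in CD4-gated cells in the order given for Xbp1, and ran from 25.8 to 39.3 CPM in CD8-gated cells. Its day 4 libraries were the 2 highest in CD4-gated cells, where vehicle on day 4 overlapped vehicle on day 2 within counting error. They lay inside the range of the others in CD8-gated cells. These levels are sums over cells, and the share of cells holding a transcript is given apart from them after the day 4 ratios.

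**Figure D1:**
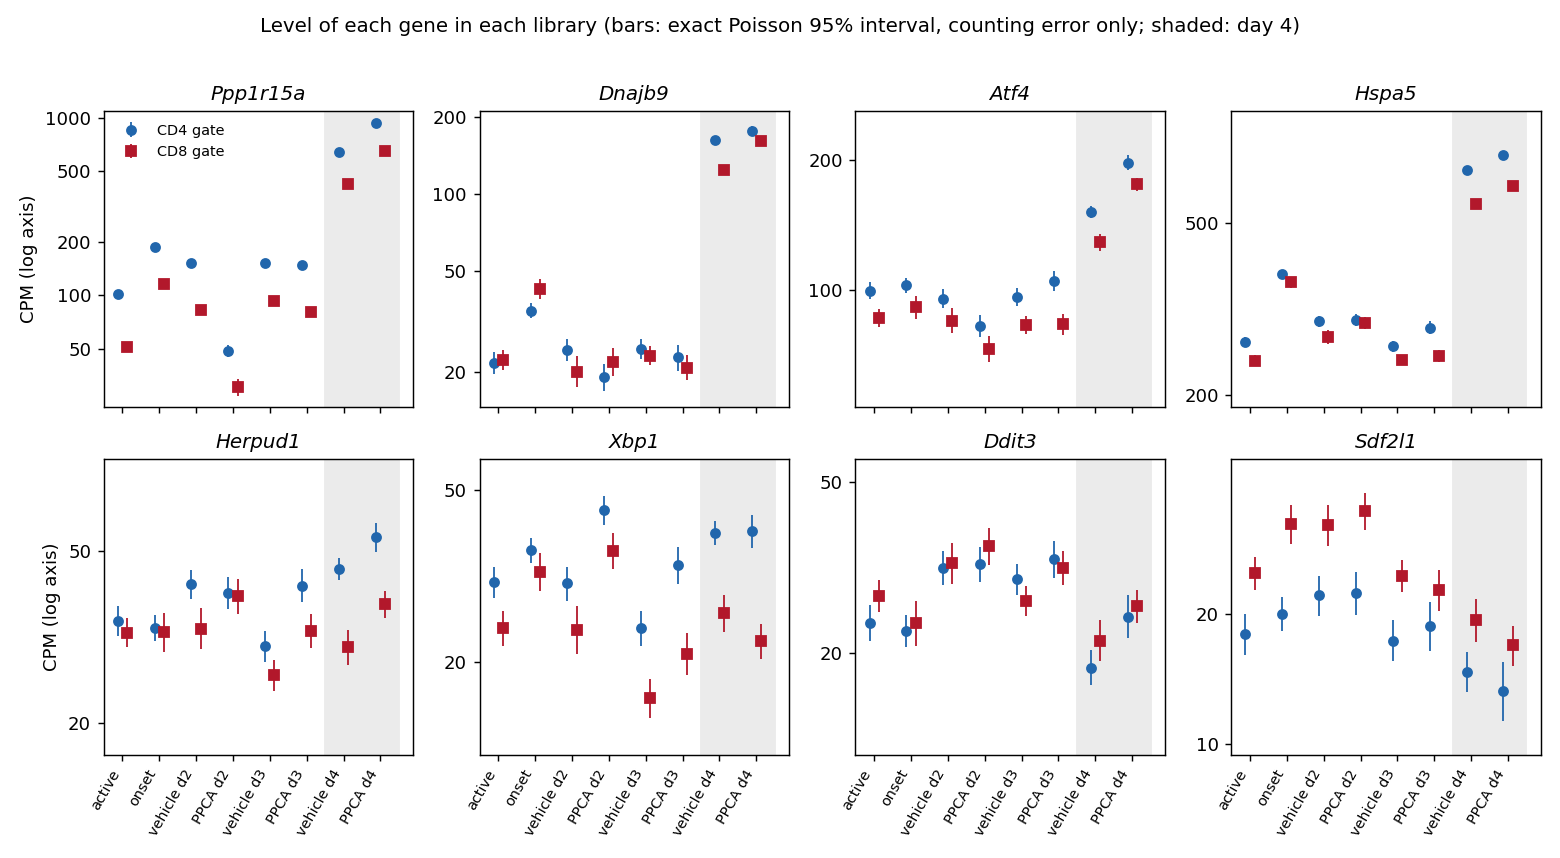
Level of each of the 8 genes (CPM, log axis) in each of the 8 libraries, for CD4-gated (blue circles) and CD8-gated (red squares) cells, with 95% Poisson counting intervals and day 4 shaded. Ppp1r15a, Dnajb9, Atf4 and Hspa5 lie above every other library on day 4 in both gates, while Sdf2l1 lies below them.

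Set against days 2 and 3, the mean day 4 level was 6.27-fold for Ppp1r15a, 7.47-fold for Dnajb9, 2.42-fold for Hspa5 and 1.84-fold for Atf4 in CD4-gated cells, and 7.51-fold, 6.61-fold, 2.21-fold and 1.88-fold in CD8-gated cells. Herpud1 stood at 1.29-fold and 1.03-fold, Xbp1 at 1.204-fold and 0.992-fold, Ddit3 at 0.678-fold and 0.749-fold, and Sdf2l1 at 0.695-fold and 0.637-fold. Of 7005 genes averaging at least 10 CPM in each gate, 7.38% had both day 4 libraries above the other 6 in both gates. Another 19.6% had both below. Of the 8 genes, 4 were in the first group and 1 in the second. Since this pattern was known when the genes were chosen, nothing is read from those counts. Ranked by the smaller of the 2 gates' log2 ratios, Dnajb9 was the third and Ppp1r15a the fourth highest of the 7005 genes, Hspa5 was at rank 71 and Atf4 at rank 130, while Ddit3 was at rank 6082 and Sdf2l1 at rank 6391. The median gene had a log2 ratio of -0.15 in CD4-gated and -0.17 in CD8-gated cells in CPM, and of -0.01 and -0.00 after TMM scaling, so values relative to the median gene are higher by about that shift; Xbp1 in CD8-gated cells changed sign, from -0.01 to 0.18.

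The other genes of the pathways are counted beside the 7.38% of all genes above and 19.6% below on day 4, and nothing particular to a list is read from its count. Of 13 other ER chaperones and folding enzymes at 10 CPM or more, 0 had both day 4 libraries above and 0 had both below the other 6 in both gates; their median log2 ratio of day 4 to days 2 and 3 was -0.19 in CD4-gated cells, with a range of -0.50 to 0.05, and -0.20 in CD8-gated cells. Of 8 eIF2 kinases and regulators, 0 stood on either side. Of 4 sensor genes, 0 were above and 2 below, which were Atf6b and Mbtps2. Of 12 genes of ER-associated degradation and translocation, Selenos was above, at 1.22-fold and 1.19-fold, and Sel1l, Derl2 and Edem1 were below.

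Textbook targets of ATF4 and CHOP stood on both sides. Of 8 at 10 CPM or more, 2 were above, namely the amino acid transporter chain Slc3a2, at 1.59-fold in CD4-gated and 1.99-fold in CD8-gated cells, and the transcription factor gene Cebpb, at 3.56-fold and 3.91-fold. Another 3 were below, namely the mTOR inhibitor gene Ddit4 at 0.304-fold and 0.386-fold, the serine synthesis gene Phgdh at 0.742-fold and 0.752-fold, and the mitochondrial folate gene Mthfd2 at 0.689-fold and 0.750-fold. The remaining 11 targets averaged under 10 CPM in 1 or both gates. Among them Atf3, a transcription factor gene, was at most 0.313 CPM in CD4-gated and 0.352 CPM in CD8-gated cells of the other 6 libraries. In vehicle and PPCA on day 4 it was at 4.13 and 8.57 CPM in CD4-gated and 5.24 and 4.80 CPM in CD8-gated cells. Sesn2 was also above, at 1.86 to 3.23 CPM on day 4 over both gates, and Psat1 and Stc2 were below. Of the 7 genes averaging under 10 CPM in 1 or both gates in the other 4 lists, the eIF2 kinase gene Eif2ak2 (PKR) was below. The other 6 stood on neither side. The genes named for day 4 from these lists were singled out after their values were seen.

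Beside these levels, a list of 10 genes of tissue dissociation and early response (Fos, Jun, Junb, Dusp1 and others) had 8 of its 9 genes at 10 CPM or more above on day 4, with a median log2 ratio of 1.32 and 1.51. Its summed level ran from 1790 to 3930 CPM in CD4-gated cells of the other 6 libraries and was 6553 CPM in vehicle and 11037 CPM in PPCA on day 4; in CD8-gated cells it ran from 1278 to 2987 CPM and was 5094 and 7739 CPM. PPCA on day 2, the lowest library for Ppp1r15a, was also the lowest for this list in both gates. No gene of the list was at 0, and its part in the day 4 levels was not tested. The cytosolic heat shock list gave 0 of 7 above, with summed levels of 2401 and 1981 CPM on day 4 in CD4-gated cells against 1753 to 4451 CPM elsewhere.

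**Figure D2:**
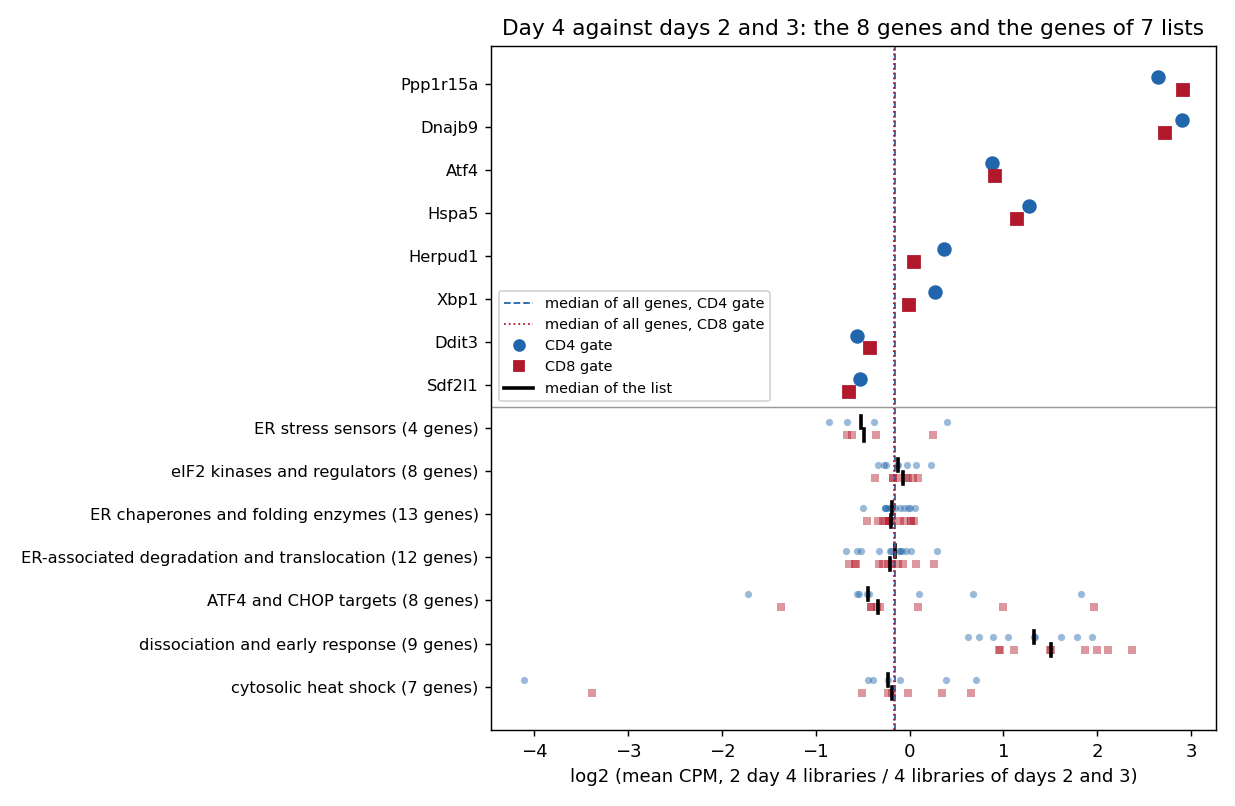
Log2 ratio of the mean CPM on day 4 to that on days 2 and 3 in both gates, for the 8 genes and for the genes of the other lists (points), with list medians as black ticks and the median of all genes as broken lines. Ppp1r15a and Dnajb9 lie between 2.65 and 2.91, while the other ER chaperones lie near the median of all genes.

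At a fixed number of UMIs per cell, the share of cells with a UMI and the UMIs per positive cell both follow the level. They therefore do not separate more cells from more transcripts per cell. For shares of cells, UMIs were drawn at random down to 2000 per cell, and cells with fewer, 11 to 95 per library and gate, were left out. Cells with a Ppp1r15a UMI made up 9.57% (95% exact binomial interval 8.55 to 10.7%) of CD4-gated cells in PPCA on day 2, 17.8 to 29.4% in the other 5 libraries outside day 4, and 68.0% and 79.2% in vehicle and PPCA on day 4. In CD8-gated cells the share was 6.12 to 19.7% in the 6 libraries outside day 4 and 53.7% and 68.5% on day 4. Without thinning, the CD4 shares ran from 17.6% in PPCA on day 2 to 91.6% in PPCA on day 4.

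Cells with a Dnajb9 UMI were 3.54 to 8.10% of cells in the 6 libraries outside day 4 over both gates, and 21.6 to 29.0% on day 4. For Atf4 the day 4 shares were 25.9% and 31.2% in CD4-gated and 22.5% and 29.0% in CD8-gated cells, against 13.0 to 18.9% elsewhere. For Hspa5 they were 68.2% and 72.5%, and 63.8% and 66.7%, against 35.6 to 49.96% elsewhere. For Sdf2l1 they were lower, 2.53% and 2.45% in CD4-gated cells against 3.20 to 3.96% elsewhere. In CD8-gated cells they were 3.17% and 3.15% against 4.35 to 6.95%. Ddit3 was also lower in CD4-gated cells, at 3.67% and 4.26% against 4.83 to 6.82%. Herpud1 was higher there, at 8.62% and 10.8% against 5.85 to 8.09%. Xbp1 in both gates, and Ddit3 and Herpud1 in CD8-gated cells, stayed inside the range of the other libraries. Cells positive for Ppp1r15a in CD4-gated cells held 1.93 and 2.38 UMIs of it on average on day 4, against 1.13 to 1.295 in the other libraries. No cell type that should lack these genes was measured, so no background share of free RNA can be set beside these values.

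The number of the 8 genes detected per thinned cell averaged 0.847 to 1.26 in the 6 libraries outside day 4 and 1.80 to 2.37 on day 4. Cells with 3 or more of the 8 genes made up 3.15 to 9.68% and then 24.1 to 42.9%. Within a library, cells with a Ppp1r15a UMI more often had one of Atf4, by a median of 2.69 percentage points, and of Hspa5, by a median of 1.95 points, in 8 of 8 libraries of CD4-gated cells. The same held for Hspa5 in cells with an Xbp1 UMI, by a median of 3.58 points. In CD8-gated cells these 3 pairs, named for their 8 of 8 libraries in CD4-gated cells, were higher in 6, 7 and 6 of 8 libraries. Other pairs reached as many there, such as Xbp1 with Herpud1 in 7 of 8, so the CD8 gate does not set the 3 pairs apart. All pairs other than the 3 were mixed in sign in both gates.

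PPCA and vehicle were compared over days 2, 3 and 4, to ask what the treatment changed, with the harvest day as a block. At an adjusted p under 0.05 (edgeR quasi-likelihood test, Benjamini-Hochberg adjustment over all genes), 0 of 11604 genes (0.0%) were called in CD4-gated and 0 of 11605 (0.0%) in CD8-gated cells, and so 0 of the 8 genes, a count from which nothing is read, since the levels by library and day were known when the genes were chosen. At an unadjusted p under 0.05 there were 789 and 945 genes; DESeq2 called 34 and 42, and limma-voom 0 and 2. A missed threshold does not show that the treatments were alike.

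Ppp1r15a differed between PPCA and vehicle in opposite directions by day. The log2 ratio of PPCA to vehicle was -1.64 on day 2 (95% counting interval -1.77 to -1.52), -0.05 on day 3 and 0.54 on day 4 (0.51 to 0.58) in CD4-gated cells. In CD8-gated cells it was -1.44, -0.19 and 0.62. The fitted log2 fold change over the 3 days was -0.44 (SE 0.35) in CD4-gated and -0.39 (SE 0.33) in CD8-gated cells, and without day 2 it turned to 0.15 and 0.13. Atf4 showed the same order of days with smaller sizes, at -0.21, 0.12 and 0.38 in CD4-gated and -0.22, 0.00 and 0.44 in CD8-gated cells. The summed early-response list was also lower under PPCA on day 2 (1790 against 3850 CPM in CD4-gated cells) and higher on day 4 (11037 against 6553 CPM), and its part in the Ppp1r15a ratios was not tested.

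On days 2 and 4 the library with the higher Ppp1r15a level was the one with Y-linked transcripts (vehicle on day 2, PPCA on day 4), and on day 3, where the levels were nearest, both carried them. For those 2 days the sex of the cells and the treatment cannot be told apart. With a factor for Y-linked transcripts in the model, which leaves 1 residual degree of freedom, the log2 fold change of Ppp1r15a in CD8-gated cells was -0.42. That fit called 200 of 11605 genes in CD8-gated and 30 of 11604 in CD4-gated cells.

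Xbp1 was higher under PPCA on days 2 and 3, with log2 ratios of 0.56 and 0.48 in CD4-gated and 0.61 and 0.34 in CD8-gated cells, and stood at 0.02 and -0.22 on day 4. Its fitted change was 0.27 (SE 0.12) in CD4-gated and 0.15 (SE 0.15) in CD8-gated cells, and the second turned to -0.04 without day 2. Herpud1 was higher under PPCA on all 3 days in CD8-gated cells, at 0.25, 0.34 and 0.33, with a fitted change of 0.22 (SE 0.09). In CD4-gated cells Herpud1 stood at -0.07, 0.47 and 0.25, with a fitted change of 0.13 (SE 0.11). By CPM Ddit3 was above vehicle on all 3 days in both gates by 0.03 to 0.39. Its 95% counting intervals included 0 on days 2 and 3 in CD4-gated cells and on day 2 in CD8-gated cells. After TMM scaling, which the fits use, Ddit3 in CD4-gated cells was not above vehicle on days 2 and 3. PPCA stood at 28.2 against 28.3 in vehicle on day 2, and at 31.5 against 32.2 on day 3. The fitted changes of Ddit3 were 0.10 (SE 0.11) in CD4-gated and 0.13 (SE 0.09) in CD8-gated cells. Hspa5, Dnajb9 and Sdf2l1 had fitted changes between -0.19 and 0.04.

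The effect of PPCA in CD8-gated against CD4-gated cells was called for 1 of 12170 genes (0.00822%, a gene whose PPCA effect was lower in CD8-gated cells; for 0.0% it was higher), none of them among the 8. Dnajb9 had the largest of the 8 differences, 0.22 (SE 0.10). In the 5 pathway lists 0 genes were called for PPCA in either gate, and the list medians ran from -0.09 to 0.11 in CD4-gated cells.

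**Figure D3:**
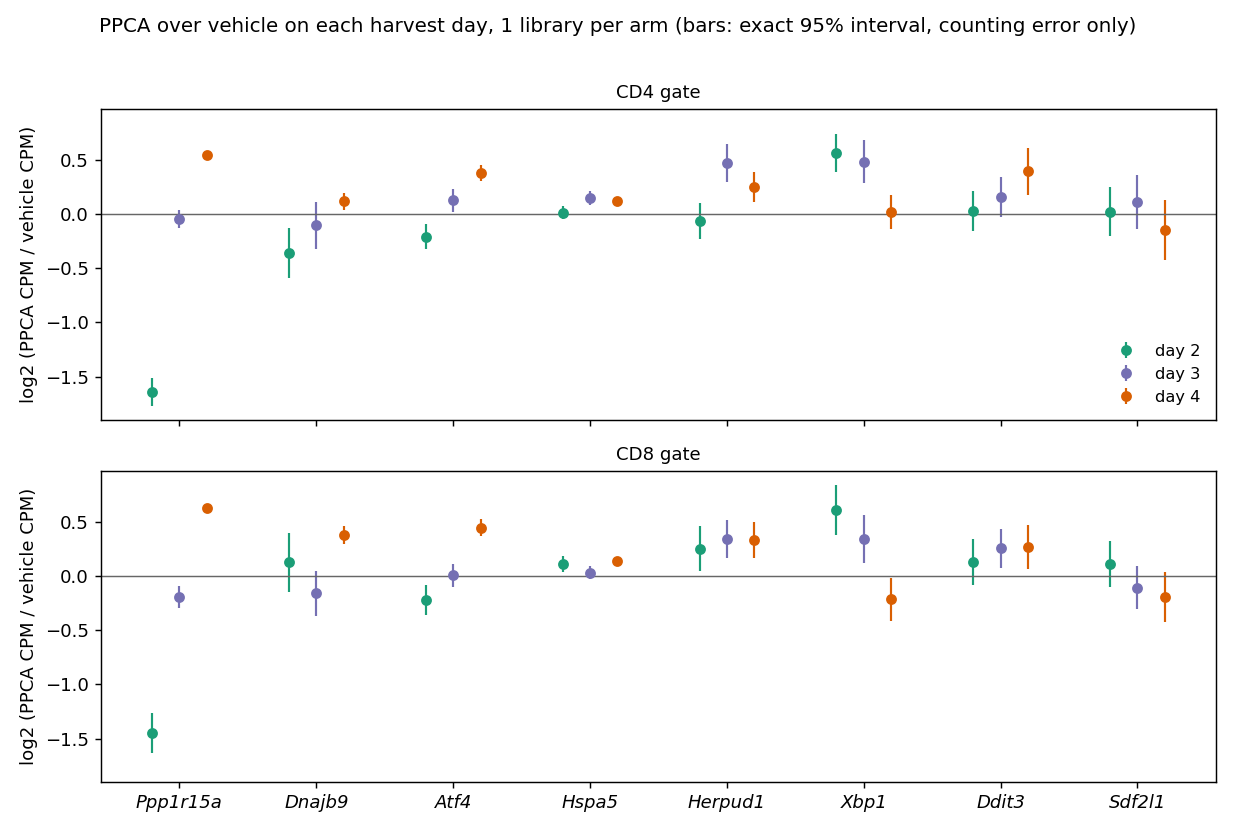
Log2 ratio of PPCA to vehicle for each of the 8 genes on days 2, 3 and 4 (colours), in CD4-gated and CD8-gated cells, with 95% counting intervals. Ppp1r15a and Atf4 lie below 0 on day 2 and above 0 on day 4 in both gates.

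The 2 T cell classes were then compared within libraries, with each library as a block. As a share of UMIs (CPM), 5 of the 8 genes were higher in helper cells (CD4 gate) than in cytotoxic cells (CD8 gate) in 8 of 8 libraries and 1 was lower in 8 of 8. The fit called 46.2% of 11553 genes, 23.2% higher and 22.9% lower in CD8-gated cells, and 6 of the 8; the levels in both gates were known when the genes were chosen, so nothing is read from that count and no p-value is given for the 8. The log2 difference of Ppp1r15a, CD8 gate against CD4 gate, was -0.69 (SE 0.04), with mean levels of 295 CPM in CD4-gated and 191 CPM in CD8-gated cells. That of Xbp1 was -0.44, of Herpud1 -0.23, of Atf4 -0.17 and of Hspa5 -0.10.

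CD8-gated cells held more UMIs per cell in 8 of 8 libraries, 5534 against 4868 as the mean of the library medians, and in UMIs per cell the order of the gates was not the same for each gene. Ppp1r15a averaged 1.43 UMIs per CD4-gated and 1.02 per CD8-gated cell and Xbp1 0.177 and 0.144, with the CD4 gate higher in 8 of 8 libraries for both. Hspa5 averaged 1.98 in either gate, with the CD8 gate higher in 5 of 8 libraries, and Atf4 (0.585 and 0.570) and Herpud1 (0.202 and 0.188) were higher per CD8-gated cell in 3 of 8. The differences that follow are again in shares of UMIs.

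Sdf2l1 went the other way, with 25.9 CPM in CD8-gated and 18.3 CPM in CD4-gated cells, a log2 difference of 0.53 (SE 0.04) and the same sign in 8 of 8 libraries; per cell it was also higher in CD8-gated cells in 8 of 8. Ddit3 stood at 0.10 and Dnajb9 at -0.05; per cell, Ddit3 was higher in CD8-gated cells in 8 of 8 libraries (0.161 against 0.137 UMIs) and Dnajb9 in 6 of 8 (0.294 against 0.298 on average), although by CPM Dnajb9 was higher in CD4-gated cells in 5 of 8. The median over the 8 genes was -0.13, and over all genes tested 0.00. The summed early-response list was higher in CD4-gated cells in each library, 1790 to 11037 against 1278 to 7739 CPM, with 8 of its 10 genes lower in CD8-gated cells and 1 higher, and its part in the Ppp1r15a difference was not tested.

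The other pathway genes are counted beside the 46.2% of all genes called, 23.2% higher and 22.9% lower, and nothing particular to a list is read from its count. Of 15 ER chaperones and folding enzymes, 5 were higher and 2 lower in CD8-gated cells, among them Creld2 at 0.23, the ER Hsp90 gene Hsp90b1 at 0.16 and the disulfide isomerase gene Pdia4 at -0.09 (log2). Of 12 genes of ER-associated degradation and translocation, 3 were higher and 2 lower, among them the translocon gene Sec61b at 0.30 and the mannosidase-like gene Edem2 at -0.26, with Sel1l at 0.11 and Selenos at -0.10. The sensor kinase gene Eif2ak3, which encodes PERK, was lower at -0.17, with 1 of 6 sensor genes higher and 1 lower, and Ppp1r15b, the constitutive counterpart of Ppp1r15a, was lower at -0.12, with 1 of 10 eIF2 genes higher and 1 lower. Of 15 ATF4 and CHOP targets, 7 were higher, among them Shmt2 (0.67) and Phgdh (0.50), and 4 lower, among them Mthfd2 (-0.60) and Ddit4 (-0.30). The calls of Pdia4, Sel1l and Eif2ak3 were lost under DESeq2 (adjusted p = 0.13, 0.20 and 0.092), and those of Pdia4, Eif2ak3 and Ppp1r15b without both day 4 libraries (adjusted p = 0.058, 0.13 and 0.051). Pdia4 was also lost without onset (adjusted p = 0.095), PPCA on day 3 (0.13) or PPCA on day 4 (0.052), and Eif2ak3 without vehicle on day 4 (0.063). Sel1l was lost without the low-count filter (adjusted p = 0.068), onset (0.078), PPCA on day 2 (0.057) or PPCA on day 3 (0.055). Without the library block these 4 calls and those of Creld2, Hsp90b1, Selenos and Ddit4 were lost.

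**Figure D4:**
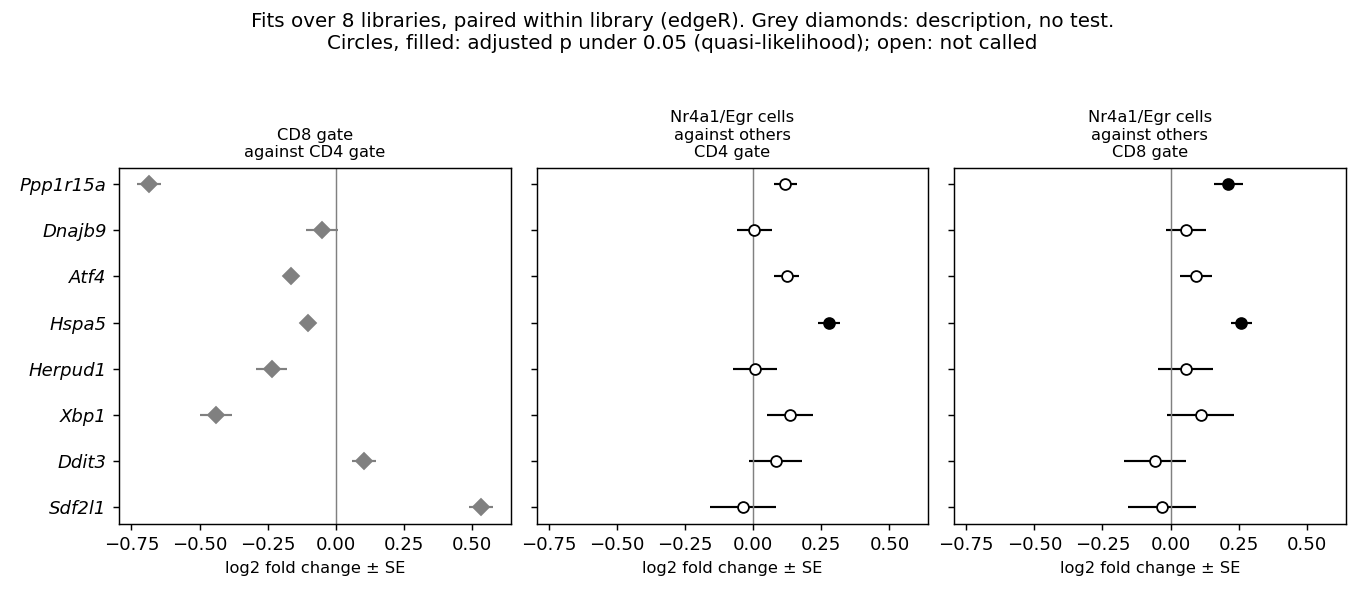
Fitted log2 fold changes with their standard errors for the 8 genes in 3 comparisons within libraries (CD8 against CD4 gate, and cells with against without an Nr4a1, Egr1 or Egr2 UMI in each gate). Grey diamonds are a description with no test, and filled circles have an adjusted p under 0.05; Ppp1r15a, at -0.69, and Sdf2l1, at 0.53, between the gates are the largest differences of the 3 panels.

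After thinning, cells with a UMI of Nr4a1, Egr1 or Egr2, immediate early genes of the T cell receptor, were compared with the remaining cells. Whether such a UMI marked a receptor signal or the early response to tissue dissociation was not tested. Cells with such a UMI made up 7.75 to 22.4% of cells in the 6 libraries outside day 4 over both gates and 35.5 to 43.7% on day 4. In CD4-gated cells 2.51% of 9513 genes were called against the remaining cells, 1.49% higher and 1.02% lower. Of the 8 genes Hspa5 alone was called, with a mean of 467 against 376 CPM and a log2 difference of 0.28 (SE 0.04, adjusted p = 1.9e-06), higher in 8 of 8 libraries. In CD8-gated cells 1.95% of 9232 genes were called, 0.899% higher and 1.05% lower, and 2 of the 8: Hspa5 at 0.26 (adjusted p = 6.8e-07) and Ppp1r15a at 0.21 (adjusted p = 0.010), both higher in 8 of 8 libraries.

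Ppp1r15a in CD8-gated cells with an Nr4a1, Egr1 or Egr2 UMI was at 59.4 CPM in active, 161 in onset, 129 and 62.2 in vehicle and PPCA on day 2, 109.5 and 105 on day 3, and 463 and 702 on day 4. In the remaining CD8-gated cells it was at 48.0, 115, 74.4, 29.7, 80.4, 79.4, 425 and 648 CPM in the same order. Both classes thus showed the day 4 level, and the step between classes was small beside that from the other libraries to day 4. The remaining cells can hold Nr4a1, Egr1 or Egr2 undetected, so the split cannot decide whether the day 4 level was tied to those genes. With thinning to 1000 rather than 2000 UMIs, cells with such a UMI made up 24.8% rather than 41.5% of CD4-gated cells in vehicle on day 4. In CD4-gated cells without such a UMI the day 4 levels were 636 and 925 CPM, against 49.9 to 190.1 CPM in the other 6 libraries. The call of Ppp1r15a in CD8-gated cells was lost without onset (adjusted p = 0.055) or vehicle on day 2 (adjusted p = 0.066), and with cells thinned to 1000 UMIs (adjusted p = 0.80).

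Dnajb9, the gene next to Ppp1r15a in its day 4 ratio, was at 0.00 (SE 0.06) in CD4-gated and 0.06 (SE 0.07) in CD8-gated cells with an Nr4a1, Egr1 or Egr2 UMI. Beside the 2.51% and 1.95% of all genes called, the early-response list had 8 of 10 genes higher in CD4-gated and 9 of 10 in CD8-gated cells of this class. The 5 pathway lists had 0 of 53 tested genes called in CD4-gated cells and 1 of 54 in CD8-gated cells, which is near the share of all genes; that gene was Slc3a2 at 0.20 (adjusted p = 0.025), a call lost with cells thinned to 1000 UMIs (adjusted p = 0.62), without the low-count filter (0.12), without the library block, and without onset (0.19), vehicle on day 3 (0.081), PPCA on day 3 (0.14) or PPCA on day 4 (0.057).

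**Figure D5:**
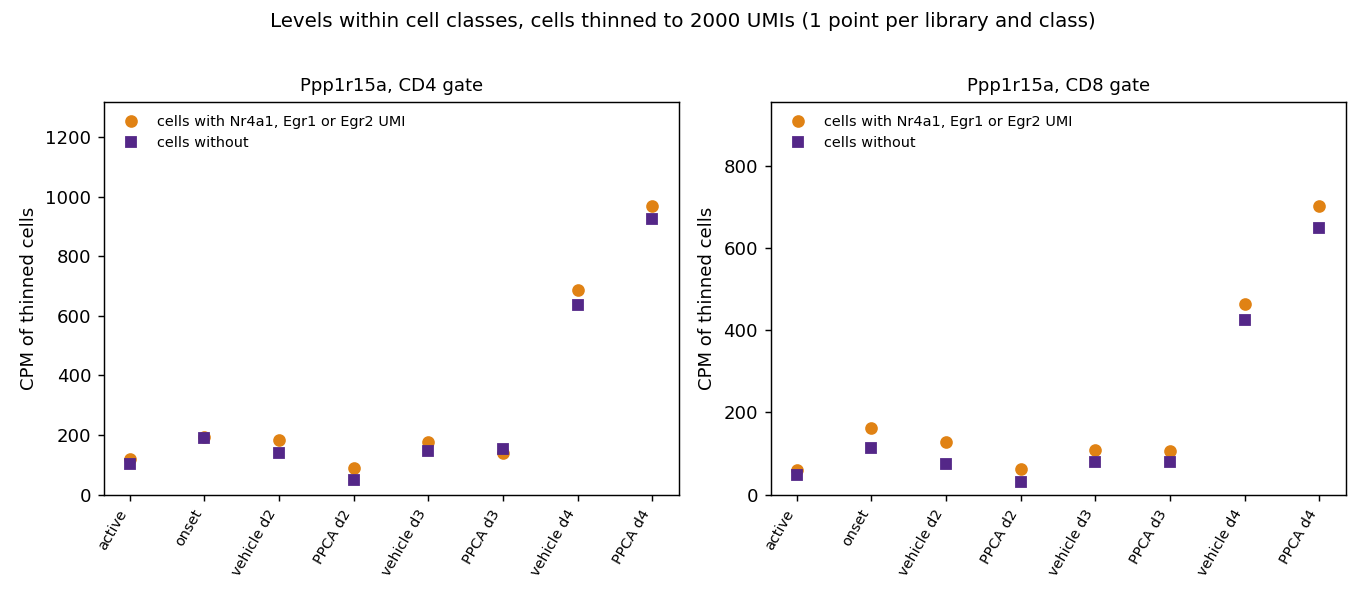
Ppp1r15a (CPM) by library in cells with and without a UMI of Nr4a1, Egr1 or Egr2, with the CD4 gate on the left and the CD8 gate on the right. Ppp1r15a is highest on day 4 in both classes and both gates.

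Active and onset, the 2 libraries that differ in glucose, have 1 library each and so no replicate check. Active was lower for Ppp1r15a by a log2 ratio of -0.88 in CD4-gated and -1.17 in CD8-gated cells, for Dnajb9 by -0.68 and -0.93, for Hspa5 by -0.53 and -0.60 and for Xbp1 by -0.25 and -0.44, with 95% counting intervals that left out 0. Sdf2l1 was at -0.38 in CD8-gated cells (interval -0.58 to -0.18) and at -0.16 in CD4-gated cells, where the interval of -0.37 to 0.05 included 0. Atf4, Ddit3 and Herpud1 had ratios between -0.09 and 0.21, with intervals that included 0. The early-response list summed to 2849 CPM in active and 3565 CPM in onset in CD4-gated cells, and to 1713 and 2987 CPM in CD8-gated cells. The cytosolic heat shock list summed to 2586 CPM in active and 4451 CPM in onset in CD4-gated cells, and to 2639 and 4324 CPM in CD8-gated cells. The part of either list in these ratios was not tested.

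Across the 8 libraries, Ppp1r15a, Dnajb9, Atf4 and Hspa5 varied together, with Pearson r of log2(CPM + 1) between 0.88 and 0.98 for each pair in each gate, as a description over 8 points of which 2 are the day 4 libraries. Sdf2l1 ran against them, with r from -0.58 to -0.91. Ddit3 also ran against these 4, at -0.59 to -0.71. The 3 genes most like each member, by the lower r of the 2 gates among 6997 genes, were Dusp1, Cited2 and Junb for Ppp1r15a (0.985 for Dusp1), Klf6, Acot2 and Tnfaip3 for Dnajb9 (0.990 for Klf6), Dusp5, Ube2s and Dbf4 for Hspa5 (0.995 for Dusp5), and Tob1, Irs2 and Per1 for Atf4 (0.983 for Tob1). For Sdf2l1 they were Twf2, Aen and Psmb9 (0.959 for Twf2), for Xbp1 Smad2, Cish and Rab11a (0.926 for Smad2), for Ddit3 2310001H17Rik, Chchd5 and Setd4 (0.938 for 2310001H17Rik) and for Herpud1 Spryd7, 2410004B18Rik and Ppp1r21 (0.882 for Spryd7).

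The authors' deposited table of marker genes for 7 T cell clusters holds 5 of the 8 genes; it lists only genes past its own limits, and Dnajb9, Atf4 and Ddit3 have no entry in it. In that deposited table Hspa5 has an average log2 fold change of 0.51 in the cluster CD4 Th0, where 86.5% of cells hold it, and of 0.26 in CD4 Th17. The authors' deposited table gives Xbp1 at 0.34 in CD4 Treg, in 19.5% of its cells, with Herpud1 at 0.26 and Ppp1r15a at 0.32 (adjusted p = 0.124) in the same cluster. Sdf2l1 is listed in the authors' deposited table for CD8 TRM TEM, at 0.35 and in 18.0% of its cells. Clusters and markers there came from the same cells, so these values are a description.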

How the data were processed

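The authors deposited, per the file headers, 1 sparse matrix of UMI counts per library made with Cell Ranger 6.0.0; the submitters' processing notes name Cell Ranger 6.1.2 and Seurat, and no source used here gives the genome build. The authors' deposited marker table gives fractions of cells, average log2 fold changes and p-values per cluster. Cells with at least 500 genes and under 10% mitochondrial UMIs were kept; the highest Scrublet scores (scanpy 1.11.5), 0.8% per 1000 barcodes, were removed as doublets, because the caller's own threshold marked 0 to 3 cells a library. A cell was taken as a T cell with 2 or more UMIs over 6 CD3 and T cell receptor genes and no more than 1 over 6 B and myeloid genes. Raw counts were summed per library and gate or class (classes after thinning to 2000 UMIs) and tested over all genes with edgeR 4.0.16 (quasi-likelihood, TMM, filterByExpr; R 4.3.3), with DESeq2 1.42.0 and limma 3.58.1 as alternatives; p-values were adjusted by Benjamini-Hochberg. Cell shares have exact binomial and levels exact Poisson 95% intervals, which cover counting error only. Harvest days pair PPCA and vehicle: the deviations of same-day libraries from their group means correlated at 0.290 to 0.463 in CD4-gated and 0.320 to 0.535 in CD8-gated cells, so day (or library, within libraries) is a block. The fits were run on simulated data without library or day effects, so that check does not cover the blocks. It recovered 77.8% and 79.7% of 2-fold changes for PPCA in CD4-gated and CD8-gated cells. For the PPCA difference between gates it recovered 81.9%, and for the gate and class comparisons 95.4 to 100%. A planned comparison of other cell classes is not reported here. The 8 genes and all lists were chosen with earlier results of these data known. Named list genes are up to 2 highest and 2 lowest called genes per list at 10 CPM or more, and likeness names 3 genes per member.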

Additional observations from a re-analysis of the deposited data

Results flagged for a closer look

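For 2 of the 8 genes PPCA stood below vehicle on day 2 and above it on day 4 in both gates, so that the 2 days moved in opposite directions; the difference between the days was not tested, since each day has 1 library a side. For Ppp1r15a the log2 ratio of PPCA to vehicle was -1.64 on day 2 and 0.54 on day 4 in CD4-gated cells, and -1.44 and 0.62 in CD8-gated cells. For Atf4 it was -0.21 and 0.38 in CD4-gated cells, and -0.22 and 0.44 in CD8-gated cells. On both days the library with the higher level was the one with Y-linked transcripts.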

How the results depend on the processing

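Each fit was recomputed under other size factors, DESeq2, limma-voom, no low-count filter and without each library or day. The gate and PPCA fits were also run with no doublet removal, looser cell filters, no exclusion of B and myeloid cells and without cells holding Jchain or Mzb1, and the class fits and cell shares with thinning to 1000 UMIs. Each fit other than the PPCA difference between gates was run with no replicate block, and the gate and class fits without both day 4 libraries, a setting added after seeing the data, as was leaving out each library from the day 4 ratio. Where a value below turned sign or a count moved, the cause was not tested. Counts of the 8 genes between the gates and for PPCA describe genes whose levels were known when chosen, and nothing is read from them. Of the recomputed counts that did not leave out 1 library, 82 stayed within 1.5 times and 22 did not. Depth limits Sdf2l1 and Ddit3 most, as the genes with the fewest UMIs.

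Without the replicate block, the 6 called genes of the 8 between the gates became 2 and the 5333 called genes 2002; for Nr4a1 or Egr cells 1 and 2 of the 8 became 0 in both gates, and 239 and 180 genes became 5 in each. For PPCA the unpaired fit turned Ppp1r15a to 0.23 in CD4-gated and 0.34 in CD8-gated cells, and Atf4 in CD8-gated cells to 0.11, none called.

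For PPCA the count of all called genes, 0 in each gate, became 34 and 42 with DESeq2, 168 and 129 without the low-count filter, and 30 and 200 with a factor for Y-linked transcripts, which also called 1 of the 8 in CD8-gated cells. In CD8-gated cells it became 2 with DESeq2 size factors, 2 with limma-voom and 2 without the B and myeloid exclusion. The 1 gene whose PPCA effect differed between the gates became 55 without the filter. Without the filter Hspa5 in CD4-gated cells turned to -0.0027, Atf4 in CD8-gated cells to 0.00015 and the gate difference of Hspa5 to 0.014; without doublet removal Atf4 and Hspa5 in CD8-gated cells turned to 0.0031 and -0.0045; without the exclusion the gate difference of Hspa5 turned to 0.0048.

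For Nr4a1 or Egr cells DESeq2 called 155 and 111 genes, thinning to 1000 UMIs left 1 of the 8 and 111 genes in CD8-gated cells, and 101 genes were called there without both day 4 libraries. Dnajb9 in CD4-gated cells turned to -0.0036 with DESeq2, -0.018 without the filter, -0.13 at 1000 UMIs and -0.018 without both day 4 libraries, and Herpud1 to -0.024, -0.063 and -0.015 under the last 3. In CD8-gated cells at 1000 UMIs Dnajb9 turned to -0.058, Ddit3 to 0.17, Xbp1 to -0.26, Herpud1 to -0.12 and Sdf2l1 to 0.41. Without both day 4 libraries Sdf2l1 turned to 0.028 and 0.014 in the 2 gates, and Dnajb9 to -0.048 in CD8-gated cells and, between the gates, to 0.058.

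With TMM scaling the day 4 ratio of Xbp1 in CD8-gated cells turned to 0.18.

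With each library or day left out in turn, the called genes of the 8 ran from 6 to 7 between the gates and from 1 to 2 for Nr4a1 or Egr cells of the CD8 gate. The called genes for PPCA ran from 0 to 69 in CD4-gated cells (69 without day 4) and from 0 to 47 in CD8-gated cells (47 without day 4), for its difference between gates from 0 to 0, and for Nr4a1 or Egr cells of the CD8 gate from 114 (without PPCA on day 4) to 186. The PPCA change of Ppp1r15a ran from -0.93 to 0.15 in CD4-gated and -0.90 to 0.13 in CD8-gated cells, and that of Atf4 from -0.15 to 0.15 and -0.23 to 0.13. That of Hspa5 ran from -0.029 to 0.028 and -0.058 to 0.081, that of Ddit3 in CD4-gated cells from -0.014 to 0.17, and those of Dnajb9 and Xbp1 in CD8-gated cells from -0.15 to 0.23 and -0.0403 to 0.35. The gate differences of the PPCA change ran from -0.017 to 0.14 for Ppp1r15a, -0.083 to 0.023 for Atf4, -0.024 to 0.093 for Ddit3, -0.017 to 0.18 for Herpud1, -0.039 to 0.048 for Hspa5 and -0.14 to 0.0198 for Sdf2l1. Between the gates Dnajb9 ran from -0.10 to 0.027. In Nr4a1 or Egr cells of the CD4 gate Dnajb9 ran from -0.039 to 0.037, Herpud1 from -0.029 to 0.075 and Sdf2l1 from -0.11 to 0.038, and of the CD8 gate Ddit3 from -0.15 to 0.013, Herpud1 from -0.066 to 0.12 and Sdf2l1 from -0.098 to 0.025. The day 4 log2 ratios in CD8-gated cells ran from -0.13 to 0.20 for Herpud1 and -0.16 to 0.24 for Xbp1.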
